A study of Zea mays with 448 samples.

Results

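The 200 genes with the most leaf-specific reads in maize-teosinte F1 hybrids are described here, out of 14125 genes with at least 500 leaf reads and 51977 genes with any segregating site. A segregating site is a position at which the maize and the teosinte parent of a cross carry different alleles, so that each read over it can be given to one parent. The members were chosen by their reads in the F1s. Reads of both alleles were summed per gene and tissue over 165 F1 libraries of 28 crosses in which 45 to 55% of reads carried the maize allele, scaled to a counts-per-million (CPM) share of the tissue total, and 1 CPM was added. Genes were ranked by a score, the smaller of the log2 of leaf over ear and the log2 of leaf over stem. The F1 tissue levels of the members are therefore a description and no result, and their tests are made on the inbred parents, on F1 crosses that the ranking left out, and on the 2 alleles.

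RNA of seedling leaf, immature ear, and seedling stem with the shoot apical meristem was sequenced from 6 maize inbreds (B73, CML103, Ki3, Mo17, Oh43 and W22), 9 teosinte inbreds (TIL01, TIL03, TIL05, TIL09, TIL10, TIL11, TIL14, TIL15 and TIL25), and F1 hybrids between them. The ranked F1 libraries number 54 from leaf, 58 from ear and 53 from stem, with mostly 2 biological replicates per cross and tissue, and the inbreds gave 88 libraries. Plants grew in chambers with equal hours of dark and light and then in a greenhouse. Leaf and stem were taken at the v4 stage, and ears as silks appeared, singly from maize and F1s and pooled within a plant from teosinte, and the labels name no treatment or transgene. Reads at segregating sites ranged between 1061175 and 2998409 per F1 leaf library, between 814838 and 2687246 per ear library and between 1273385 and 3180416 per stem library.

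Maize and teosinte are C4 plants. In the leaf, mesophyll cells first fix CO2 into organic acids with phosphoenolpyruvate carboxylase, and bundle sheath cells release it again around Rubisco, the enzyme that opens the Calvin cycle. The light reactions that feed both rest on photosystems, their chlorophyll-binding antennae, and an electron transport chain, all of which are nearly confined to green tissue. Within an F1 both alleles of a gene meet the same cell contents, so unequal reads of the alleles are usually read as a difference that lies at or near the gene.

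The members held 9.26% of all leaf reads, against 0.121% of ear reads and 0.198% of stem reads. Their leaf level had a median of 198.5 CPM (range 17.2 to 5990), with 138 genes at 100 CPM or more and 25 at 1000 CPM or more, while all genes eligible for the ranking had a median of 30.3 CPM. In ear and in stem the medians of the members were 1.62 and 3.47 CPM. Stem set the score in 162 members and ear in 35, and in the other 3 no read was seen in either tissue. The scores spanned 4.07 to 9.17, with a median of 5.11. At the edge of the list, the last 3 members (GRMZM2G126496, the ferredoxin-NADP reductase gene L-FNRI GRMZM2G168143, and GRMZM2G176521) scored 4.0756, 4.0747 and 4.0729. The next 3 genes (GRMZM2G084407, GRMZM2G101617 and GRMZM2G300348) scored 4.0714, 4.0705 and 4.0689, so the border falls within a run of like values. CPM at segregating sites depend on how many sites a gene has and in which crosses, and are not compared between genes below.

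Of the members, 170 have an identifier in RefSeq, 36 carry a gene name, and 25 are in one of 17 gene lists drawn by symbol. Photosynthesis takes 19 of these 25 places, and the 19 genes gave 26.4% of the members' leaf reads. Of 12 listed genes of photosystems and antennae 7 are members, of 6 Calvin cycle genes 4, of 12 genes of photosynthetic electron transport 3, and of 15 genes of the C4 cycle, a list that also holds forms with other roles, 5. The symbols of the C4 list matched 2 further genes (GRMZM2G097821 and GRMZM2G107196) that carry the symbol PDK1 but no name of the dikinase, and these are left out of the 15. The other listed members are the wax gene gl1, the beta-glucosidase gene glu2, the sucrose phosphate synthase gene sps1, the beta-amylase gene BMY1, the methyltransferase gene OMT2 (AAMT2), and MYBR115, the only member among 381 listed transcription factors. The lists for chlorophyll synthesis, carotenoids, jasmonate, the clock and photoreceptors, nitrogen and sulfur assimilation, ear and floral markers, stem meristem markers and dividing cells have no member.

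The phosphoenolpyruvate carboxylase gene pep1 (GRMZM2G083841, rank 2) has sites on chromosome 9 between 61296290 and 61301549 in the B73 genome AGPv2, and its leaf level over 18 crosses was 112 CPM at the lowest, 937 at the median and 5319 at the highest. Ear held 1.28 CPM at most in any cross and stem 8.25 CPM. Pyruvate orthophosphate dikinase, which regenerates the CO2 acceptor, is encoded by pdk1 (GRMZM2G306345, rank 5, chromosome 6, 145987061 to 145997441), and its leaf level was 320 CPM at the lowest, 3868 at the median and 18263 at the highest over 28 crosses. Its ear level had a median of 2.14 CPM, with 257 CPM in the cross W22xTIL11, and its stem level a median of 14.2 and a maximum of 87.7 CPM. The NADP-malic enzyme gene me3 (GRMZM2G085019, rank 15), whose product releases CO2 in the bundle sheath, ranged between 241 and 11884 CPM in leaf, between 4.62 and 58.3 CPM in ear and between 1.69 and 39.9 CPM in stem. Leaf did not overlap with the other tissues over crosses in pep1, pdk1 or me3. The NADP-malate dehydrogenase gene mdh6 (rank 66) and the plastid dicarboxylate transporter gene pDCT2 (rank 182) complete the 5 C4 members, with summed leaf levels of 1647 and 1757 CPM.

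The Calvin cycle has 4 members. The Rubisco small subunit gene rbcS (GRMZM2G113033, rank 8) gave between 764 and 9416 CPM in leaf over 11 crosses, at most 12.1 CPM in ear and at most 80.7 CPM in stem. The Rubisco activase gene rca1 (GRMZM2G162200, rank 11) had a leaf median of 582 CPM, against ear and stem medians of 1.35 and 2.84 CPM. The gene gpa1 (GRMZM2G337113, rank 20) for the chloroplast glyceraldehyde-3-phosphate dehydrogenase, which reduces the product of carbon fixation, had a leaf median of 2933 CPM, against 5.34 in ear and 25.2 in stem. In B73xTIL01 its leaf level was 2.06 CPM, with no read in ear or stem. A further small subunit gene, ssu1 (GRMZM2G098520, rank 98), rests on the reads of Oh43xTIL15 alone out of 8 crosses with sites. Small subunit genes and antenna genes are families of near-identical copies, and how perfect alignments split their reads is uncertain.

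Antenna and photosystem genes take 7 places, and the ferredoxin gene FDX1 and the ferredoxin-NADP reductase genes L-FNRI and L-FNRII take 3. The antenna gene cab-m1 (GRMZM2G351977, rank 4) had a leaf median of 1116 CPM over 27 crosses (range 7.62 to 7833), against 1.64 CPM in ear and 4.93 in stem. The antenna genes lhcb3, Cab-m7 and lhcb4 rank 26, 56 and 62, the photosystem I subunit genes psaN and psaH rank 34 and 40, and psbs1, whose product sheds excess light energy, ranks 58. The remaining 5 genes of this list fell below the border, the nearest being lhcb5 at rank 348. Among other named members, pdrp1 (rank 103) regulates pyruvate orthophosphate dikinase, ris2 (rank 134) has the name of a Rieske iron-sulfur protein, thi1 (rank 107) makes the thiazole of thiamine, and gl1 (rank 29) acts in cuticular wax.

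**Figure D1:**
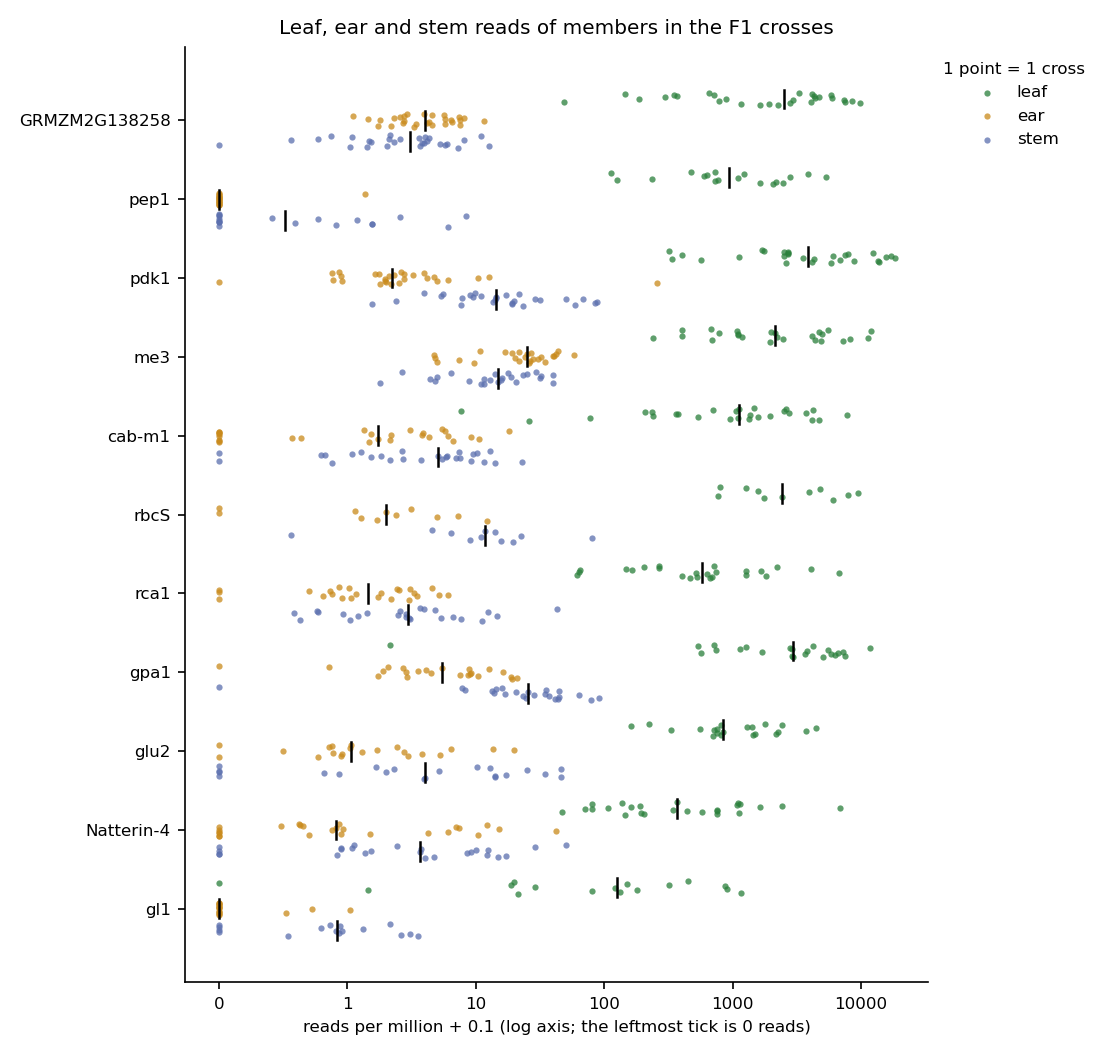
CPM (log axis, 0.1 added) of 11 members in leaf, ear and stem, with 1 point per F1 cross and a black bar at the median. Leaf values of pep1, pdk1 and me3 lie above all ear and stem values, the closest being the pdk1 ear value of 257 CPM in W22xTIL11.

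The gene at rank 1 has no name in the reference table. GRMZM2G138258 (chromosome 3, 147397889 to 147398993) ranged between 48.3 and 9876 CPM in leaf over 28 crosses, with a median of 2530 CPM, and did not pass 11.6 CPM in ear or 12.5 CPM in stem. The unnamed genes at ranks 3 (GRMZM5G873519), 6 (GRMZM2G027479) and 7 (GRMZM2G121878) had leaf medians of 1127.5, 1450 and 424 CPM, against stem medians of 1.10, 3.76 and 0.905 CPM. Of all members, 132 were more than 2-fold higher in leaf than in both other tissues in every cross in which they had sites, and 4 were so in under 50% of their crosses. These counts describe the reads that the ranking used, and some members had sites in only 1 cross. Ranks 9 (GRMZM2G162529), 10 (GRMZM2G328908) and 12 (GRMZM2G043162) had leaf medians of 1018, 208 and 336 CPM and stem medians of 4.08, 0.532 and 0.653 CPM. Among the 10 members with the most leaf reads, GRMZM2G081462 (rank 133) had medians of 2287 CPM in leaf, 64.8 in ear and 111 in stem, while GRMZM2G046284 (rank 27) had 2183 CPM in leaf, 0.320 in ear and 23.8 in stem. GRMZM2G318635 (rank 75) had 2362 CPM in leaf, 45.6 in ear and 51.1 in stem.

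Leaf reads of the members varied strongly between libraries of 1 tissue. Their share of a leaf library's reads was 1.36% at the lowest, 7.69% at the median and 23.1% at the highest over the 54 ranked F1 leaf libraries, whereas no ear library passed 0.233% and no stem library 0.720%. Replicates of the same cross differed as well: the 2 leaf libraries of Mo17xTIL14 held 2.46% and 21.1%, and those of W22xTIL11 held 19.5% and 4.06%. By sequencing pool the median share was 6.68%, 3.84%, 14.4%, 8.83% and 3.18% in pools 5 to 9. In the inbreds, sequenced in other pools, the share of leaf reads was 1.04 to 6.87% in maize (median 3.19%) and 1.09 to 7.83% in teosinte (median 2.80%). In bulk tissue, fewer leaf cells of a type and less RNA per cell cannot be told apart. Summed reads of 48 listed ear and floral markers had medians of 266 CPM in F1 leaf libraries, 1248 in ear and 397 in stem. Not all of the 48 are high in ear. Over the summed F1 reads zmm19 had 112 CPM in leaf, 12.3 in ear and 229 in stem, and ids1 68.4, 53.7 and 49.1. GRMZM2G090568, listed by the synonym Ct2 but also named cat2, had 16.0, 0 and 0.0184 CPM. In the inbreds 16 of 21 genes tested from this list were called lower in leaf than in ear, and 1 higher. Summed reads of 10 stem meristem markers had medians of 109 CPM in leaf, 453 in ear and 232 in stem. The 21 markers of dividing cells ranged between 22.99 and 2152 CPM over F1 leaf libraries. The part of the sequencing pool or of other cells in these differences was not tested. For 2 libraries of pool 6 the labels and a supplementary table of the study differ. In the pool 6 libraries alone 187 of the 200 members were above both other tissues in leaf, with a median score of 3.07. These libraries took part in the ranking, so that count is a description, and no share over all eligible genes is given beside it. When the pool 6 libraries were left out, 192 of the 200 remained, an alternative chosen after the data were seen.

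The members' reads were also uneven over crosses. The cross with the most reads gave 21.6% of a member's leaf reads at the median, over 50% in 19 members, and all of them in 4, among them ssu1 and the ferredoxin gene FDX1, which had sites in 1 cross. GRMZM2G071450 had a leaf median of 0.387 CPM over 27 crosses and GRMZM2G175562 a median of 0 over 22, while their highest crosses reached 1606 and 1699 CPM. A value of 0 can reflect which sites are listed for a cross. In all, 153 of the 200 genes remained among the first 200 when 0.1 CPM was added in place of 1, and 174 to 196 remained with the deepest site of each gene or with all F1 libraries of the crosses.

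The inbred parents show whether leaf reads stand above ear and stem reads in plants that the ranking did not use. In them, pep1 (GRMZM2G083841) had 34.3 to 1354 CPM in leaf over 14 inbreds (median 255), with no ear read and at most 4.87 CPM in stem. The tissues did not overlap. The log2 of leaf over stem was 8.89 ± 0.49 (SE), and the fitted leaf over ear value of 13.14 ± 0.65 is no bound, as ear is at 0. In GRMZM2G351977 (cab-m1), leaf held 0.444 to 1205 CPM with a median of 482, against 0 to 21.1 in ear (median 0.949) and 0 to 17.2 in stem (median 0.143). The ranges overlapped through the lowest leaf value, and the log2 of leaf over stem was 9.42 ± 0.60. The beta-glucosidase gene glu2 (GRMZM2G008247) had 10.04 to 1600 CPM in leaf (median 538), and no ear or stem value passed 3.05 CPM. Its log2 of leaf over stem was 11.88 ± 0.50. In edgeR's quasi-likelihood test with the inbred as a block and Benjamini-Hochberg adjustment, the adjusted p of leaf over stem was 1.7e-11 for pep1, 2.0e-14 for cab-m1 and 4.6e-19 for glu2. All 3 genes passed the filter on low counts only with the help of their leaf reads, so they had to differ, and these p are given as a description.

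The leaf, ear and stem libraries of the inbreds were sequenced in separate pools, and apart from pool 6 so were those of the F1s, so tissue and pool cannot be told apart. Over all members, 133 passed the filter on low counts in the inbreds, and 67 were not tested. All 133 were called higher in leaf than in ear at an adjusted p of 0.05, where 33.9% of all genes tested were called in that direction, and 131 were called higher in leaf than in stem, where 25.7% of all genes were. The median log2 of leaf over ear was 4.95 among the members and near 0 (-0.0014) among all genes, and that of leaf over stem was 5.03 and -0.03. Because 71 of the 133 would not have passed the filter without their leaf reads, those genes had to differ, and the counts are given as a description. Without the filter, 194 of the 200 were called higher in leaf than in ear, where 23.1% of all genes were, and 185 higher than in stem, where 16.1% were. The 16 photosynthetic members that passed were among those called in both.

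A few members behaved otherwise in the inbreds. Pyruvate orthophosphate dikinase reads were not scarce in inbred stems: pdk1 (GRMZM2G306345) had 45.3 to 2435 CPM in leaf (median 552), against 28.7 to 323 CPM in stem (median 165). The tissues overlapped, with more reads in stem than in leaf in CML103, Ki3, Oh43 and TIL15, and the log2 of leaf over stem was 1.85 ± 0.52 (adjusted p = 0.0032). The sucrose phosphate synthase gene sps1 (GRMZM5G875238) was the only tested member called lower in leaf than in stem, a call that 28.6% of all genes tested received. It had 0 to 36.7 CPM in leaf (median 0.508) and 0 to 45.4 CPM in stem (median 9.93), a log2 of -2.42 ± 0.58 (adjusted p = 0.00073), although TIL01 and TIL05 had more in leaf. The gene nuc (GRMZM2G112968) had medians of 42.1 CPM in leaf and 62.7 CPM in stem and a log2 of -0.46 ± 0.30 (adjusted p = 0.20). In the teosinte inbreds alone it was called lower in leaf (-1.23, adjusted p = 0.00031), while in the maize inbreds alone its value had the other sign, 0.59, and was not called (adjusted p = 0.35). The difference between the groups of inbreds was not tested. Without the filter bss1 (GRMZM2G168552), chosen after its values were seen, was also lower in leaf. It had no leaf read in 6 of 8 inbreds and at most 0.647 CPM, against 4.63 to 102 CPM in stem. In the F1s its leaf level was 0.578 to 1430 CPM, 67.8% of it from B73xTIL14, and its stem level was 0.955 to 13.4 CPM.

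**Figure D2:**
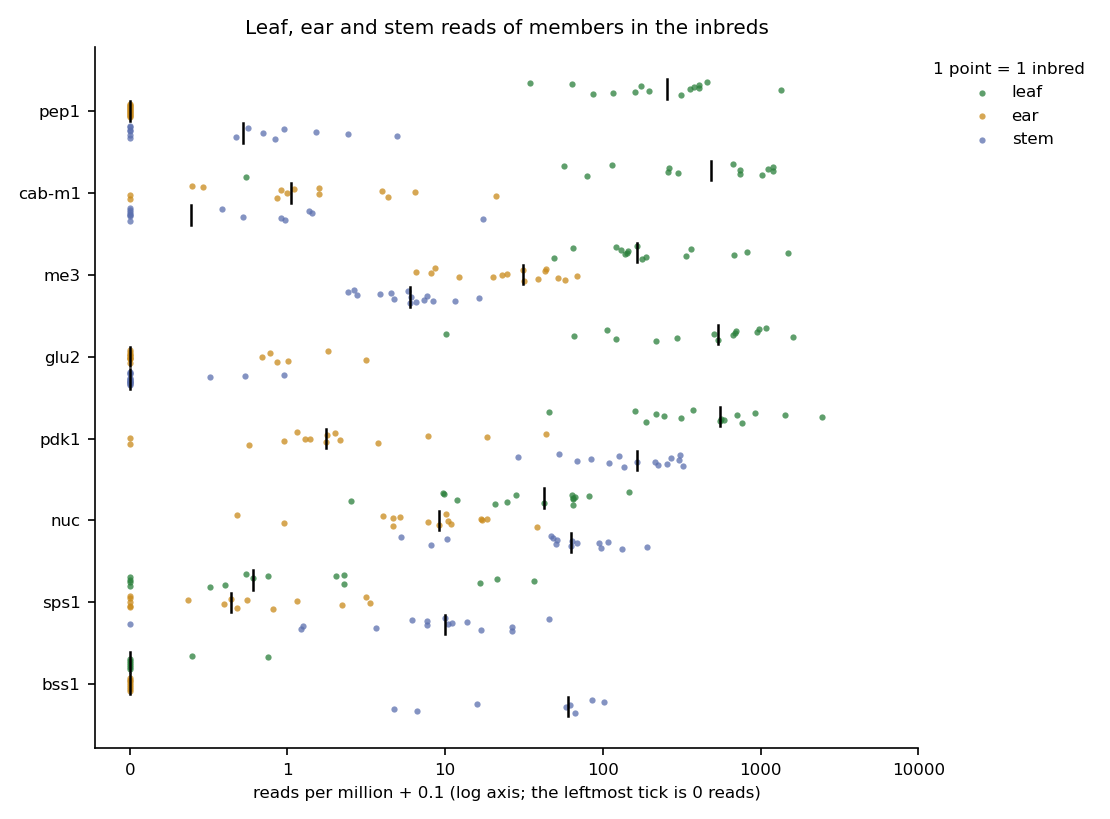
CPM (log axis, 0.1 added) of 8 members in leaf, ear and stem, with 1 point per inbred and a black bar at the median. The upper 4 genes stand higher in leaf, pdk1 overlaps with stem, nuc and sps1 have higher medians in stem, and bss1 has at most 0.647 CPM in leaf against 4.63 to 102 CPM in stem.

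Of the members, 169 had leaf sites in both inbreds and F1s. Their median leaf level in the inbreds was lower than in the F1s by a log2 difference of -1.67 at the median, and 64 of them (37.9%) were more than 4-fold lower, against a median of -0.03 and 1.44% among the other genes. These genes were chosen for high F1 leaf levels and inbreds were sequenced in other pools, so that choice, pool and hybrid state cannot be told apart. The rank 1 gene GRMZM2G138258 had a median of 112 CPM in inbred leaves, against 2530 CPM in F1 leaves, and sps1 had 0.508 against 62.4 CPM. The gene OMT2 (GRMZM2G116966) had a median of 0 in inbred leaves and 15.8 CPM in F1 leaves, with 1107 CPM in B73xTIL14. In 7 genes the inbreds were more than 4-fold higher, among them GRMZM2G071450 with 142 CPM against 0.387 CPM. Their F1 medians can reflect which sites are listed for a cross. Leaf was over 2-fold above both other tissues in 14 of 27 crosses with sites of GRMZM2G071450. It was so in 6 of 22 for GRMZM2G175562, 8 of 21 for GRMZM2G402092 and 6 of 16 for GRMZM2G016677. For GRMZM2G157007, GRMZM2G016622 and GRMZM2G110277 it was so in 20 of 23, 8 of 11 and 7 of 11.

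The libraries labelled Mo17xTIL01, Mo17xTIL25 and CML103xTIL25 had no ear counterpart and so took no part in the ranking. Reads of the libraries labelled Mo17xTIL25 were 96.3 to 99.4% maize, which goes against their label as an F1, and those labelled CML103xTIL25 were 31.1 to 31.9% maize. In Mo17xTIL01 the share was 50.9 to 51.0%. Leaf and stem of these crosses too came from separate pools. In the leaf and stem libraries of all 3, 107 members passed the filter, and 104 were called higher in leaf, where 12.7% of all genes were. Of the 107, 73 would not have passed without their leaf reads, so this count too is a description. The rank 1 gene GRMZM2G138258 had a log2 of leaf over stem of 10.73 (adjusted p = 0.0070), cab-m1 of 8.31 (adjusted p = 0.0057) and rca1 of 9.18 (adjusted p = 0.0035), and all of these needed their leaf reads to pass. For me3 (GRMZM2G085019), which did not, the value was 7.92 (adjusted p = 0.0076).

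In Mo17xTIL01 alone, an alternative chosen after the data were seen, 87 of 92 tested members were called, against 5.97% of all genes. There me3 had 6.13 (adjusted p = 0.041), and the rank 1 gene GRMZM2G138258 had 10.61 (adjusted p = 0.019). The gene pdk1 (GRMZM2G306345) was called in neither fit: over the 3 crosses its log2 of leaf over stem was 8.36 (adjusted p = 0.18), and in Mo17xTIL01 alone it was -3.16 (adjusted p = 0.19). It had 0.552 CPM in leaf and 6.39 CPM in stem of Mo17xTIL01, against 6028 and 6.42 CPM in CML103xTIL25 and 32624 and 49.5 CPM in Mo17xTIL25. Other members tested in Mo17xTIL01 had a positive value. The leaf values of pdk1 in these crosses thus differed far more than its stem values. The leaf value in Mo17xTIL01 rests on very few reads, and the reads of Mo17xTIL25 go against its label.

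The alleles were compared in leaf with the cross as a block. The median log2 of maize over teosinte allele was 0.05 over 144 members tested and 0.04 over all 11652 genes tested. In edgeR's quasi-likelihood test 14 members had a higher maize allele at an adjusted p of 0.05, a call that 7.66% of all genes received, and 9 members had a higher teosinte allele, which 4.05% of all genes did. These are 9.72% and 6.25% of the members. Among the 23, the fitted ratio was over 2-fold in 6 and under 1.5-fold in 12. None of the 10 photosynthetic members tested was called, with ratios between -0.41 and 0.44 (median -0.04).

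Summed over 28 crosses, pdk1 had 297970 maize and 297586 teosinte reads, and its log2 ratio over crosses ran between -0.98 and 0.53 with a fitted value of -0.03 ± 0.06 (adjusted p = 0.78). For pep1 the fitted value was 0.13 ± 0.08 (adjusted p = 0.32), with 11 of 18 crosses higher for maize, and for pDCT2 -0.05 ± 0.05 (adjusted p = 0.59). The gene gpa1 had the higher teosinte allele in 20 of 22 crosses, with a median log2 ratio of -0.10, and missed the threshold (-0.13 ± 0.04, adjusted p = 0.053).

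The largest tilt toward maize was in GRMZM2G162233 (rank 49, chromosome 5, 206744116 to 206745000), which has no name. In leaf F1s it gave 14382 maize reads and 1743 teosinte reads, the maize allele was higher in 14 of 14 crosses with at least 20 reads, and the fitted log2 ratio was 4.28 ± 0.68 (adjusted p = 0.00069). The crosses fall apart by teosinte parent. With TIL09 (3 crosses) and TIL10 (1 cross) the ratio was 0.64 to 1.03, and with the other teosinte parents it was 3.86 to 7.31. In the leaf of the inbreds, as CPM scaled to all sites of the gene, TIL09 and TIL10 had 89.7 and 91.1, while TIL01, TIL03, TIL11 and TIL15 had 14.9, 0, 7.27 and 14.5, and the 6 maize inbreds had 36.1 to 240. The difference among teosinte parents was noticed after the values were seen and was not tested, since this gene lacked reads for the test among parents.

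The beta-amylase gene BMY1 (GRMZM2G058310, chromosome 7, 155357394 to 155360478), whose product breaks starch into maltose, had the higher maize allele in 17 of 19 crosses, with ratios between -3.94 and 5.07 (median 2.17) and a fitted value of 2.11 ± 0.41 (adjusted p = 0.0014). It lost the call without the crosses of B73 (1.48, adjusted p = 0.060). GRMZM2G038519 (rank 17) was higher for maize in 21 of 22 crosses with a fitted value of 0.24 ± 0.05, and GRMZM2G026807 in 22 of 28 with 0.21 ± 0.04. GRMZM2G035708 was higher for maize in all 13 crosses, with 1.24 ± 0.29, and it lost the call without B73 at a like value (1.22, adjusted p = 0.051). AC213612.3_FG001 (0.48 ± 0.12), GRMZM2G025171 (0.78 ± 0.20) and GRMZM2G153444 (0.39 ± 0.11) complete the 8 with the smallest p toward maize.

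Toward teosinte, GRMZM2G028570 (rank 113, chromosome 8, 71719699 to 71721529) had the smallest p. Its teosinte allele was higher in 19 of 22 crosses, with 3331 teosinte reads against 1840 maize reads and a fitted log2 of maize over teosinte of -0.87 ± 0.13 (adjusted p = 5.4e-05). GRMZM2G126496 had the higher teosinte allele in all of 16 crosses, with ratios between -8.04 and -0.12 and a fitted value of -1.93 ± 0.36. GRMZM2G111954 (-1.59 ± 0.36), GRMZM2G128434 (-0.70 ± 0.18), GRMZM2G042253 (-0.40 ± 0.12), GRMZM5G854533 (-0.37 ± 0.06), GRMZM5G862107 (-0.30 ± 0.05) and GRMZM2G027219 (-0.18 ± 0.05) follow. GRMZM2G042253 lost its call without replicate 1 (adjusted p = 0.16) and without replicate 2 (0.14), and GRMZM2G027219 (0.12) and GRMZM2G128434 (0.090) lost theirs without replicate 1. Toward maize, AC213612.3_FG001 (0.092) lost its call without replicate 1 and GRMZM2G153444 (0.0503) without replicate 2. Without the crosses of B73 the calls of GRMZM2G025171 (0.70, adjusted p = 0.065), GRMZM2G153444 (0.48, adjusted p = 0.0501), GRMZM2G042253 (-0.43, adjusted p = 0.089) and GRMZM2G027219 (-0.19, adjusted p = 0.064) were lost at values close to those over all crosses, and that of GRMZM2G128434 at a smaller one (-0.44, adjusted p = 0.10). With all F1 leaf libraries of the crosses, which adds the leaf library of B73xTIL01 with 80.7% maize reads, GRMZM5G862107 (-0.22, adjusted p = 0.105), GRMZM2G042253 (-0.33, adjusted p = 0.15) and GRMZM2G027219 (-0.11, adjusted p = 0.49) lost their calls. With the deepest site of each gene those of GRMZM2G128434 (adjusted p = 0.093), GRMZM2G042253 (0.31), GRMZM2G027219 (0.13) and GRMZM2G153444 (0.086) were lost. Among the 23 called members, the few stem reads had the same sign as leaf in 21 of 22 with a stem ratio, and the ear reads in 15 of 19. No such counts over all called genes are given here, so these are a description.

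**Figure D3:**
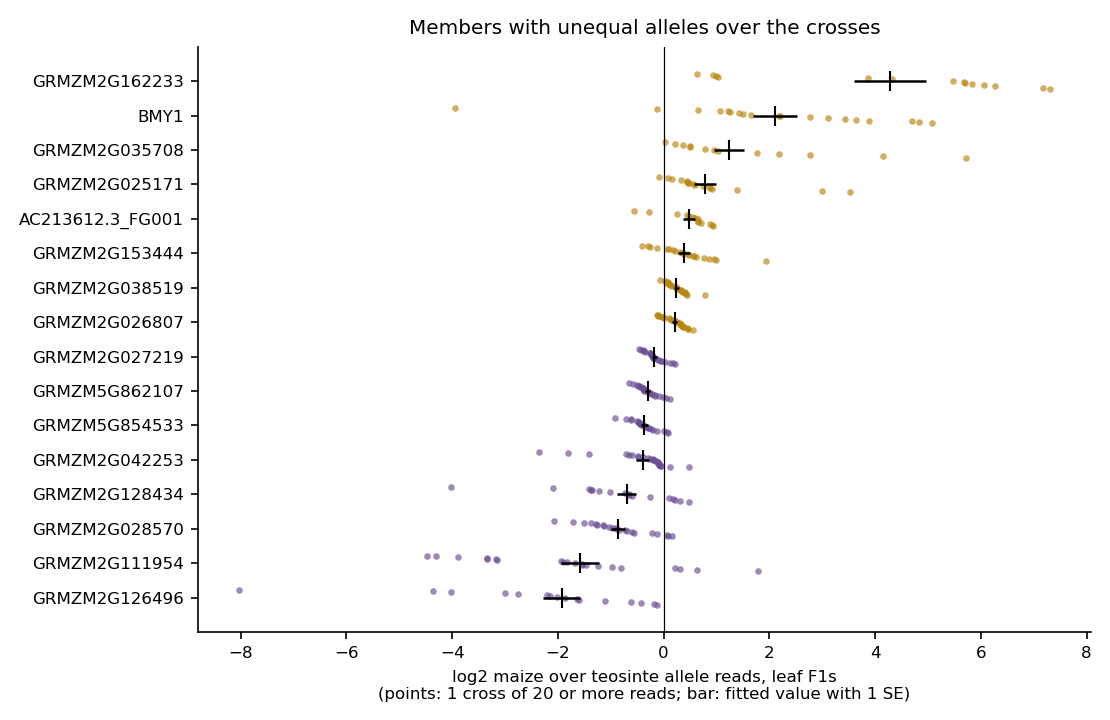
Log2 of maize over teosinte allele reads in leaf F1s for the 8 members called toward maize and the 8 called toward teosinte with the smallest p, with 1 point per cross of at least 20 reads and a black bar with 1 SE at the fitted value. GRMZM2G162233 has 4 crosses at 0.64 to 1.03 and the others at 3.86 or above, and the ratios of GRMZM2G038519 and GRMZM2G026807 lie close together on the maize side.

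Cross by cross, the share of members with the higher maize allele was 40.0% at the lowest (W22xTIL14, 44 of 110), 53.7% at the median and 64.0% at the highest (Oh43xTIL01, 64 of 100), against 47.5%, 50.6% and 60.4% among the other genes. The median log2 ratio of the members ran between -0.12 and 0.15 over crosses, and that of the other genes between -0.02 and 0.14. The SD of the members' ratios within a cross was 0.81 to 2.37 with a median of 1.52, and that of the other genes 1.00 to 1.54 with a median of 1.17. Between 7.43% and 25.5% of members were more than 2-fold apart, with a median of 16.4%, and the same median among the other genes was 16.0%. These values share parents between crosses and are given without a test.

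By parent, crosses of TIL01 had member medians of 0.09, 0.13 and 0.15, against a median of 0.01 among the other genes of these crosses. The 5 crosses of TIL11 had a median of -0.03, against 0 among the other genes, and the 4 of TIL09 a median of 0.12, against 0.05. On the maize side the medians over crosses were 0.05 for B73, 0.04 for CML103, 0.02 for Ki3, 0.06 for Mo17, 0.05 for Oh43 and 0.02 for W22. B73, the inbred of the reference genome, ranged between -0.03 and 0.11 over 7 crosses.

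**Figure D4:**
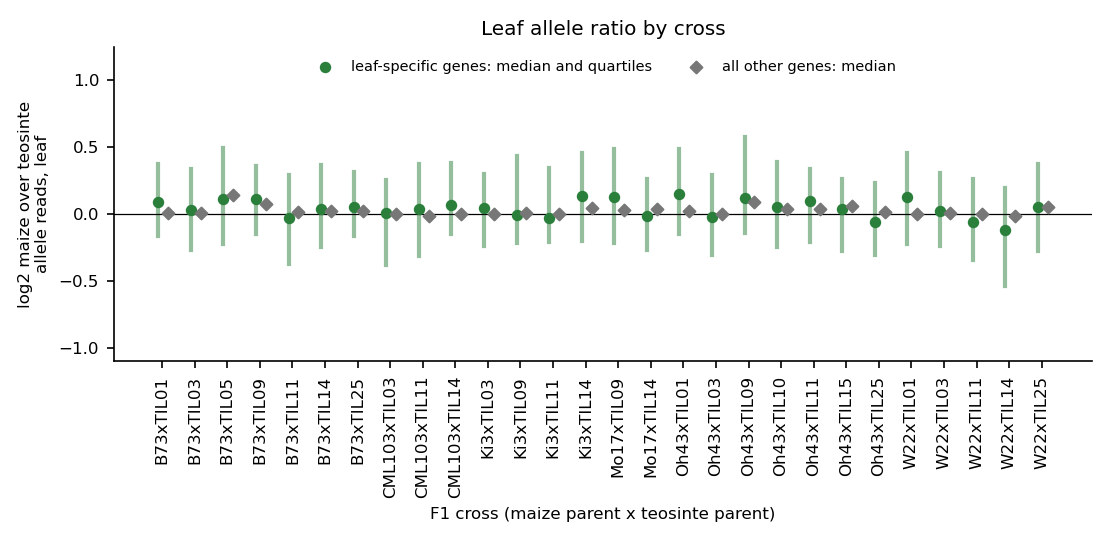
Log2 of maize over teosinte allele reads in leaf for each of 28 crosses, ordered by maize parent, with the median and quartiles of the members in green and the median of all other genes in grey. Member medians lie between -0.12 (W22xTIL14) and 0.15 (Oh43xTIL01), and the medians of all other genes between -0.02 and 0.14.

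Of 160 members with at least 20 reads in each of 10 or more crosses, 2 were higher for maize in every cross and 1 for teosinte, against 56 and 30 of 12516 other genes. The SD of the ratio over crosses had a median of 0.64 in the members and 0.67 in the others. The largest SDs were those of GRMZM2G451187, GRMZM2G100060, GRMZM5G865543, GRMZM2G043162 and GRMZM2G127361, between 3.55 and 5.70. In GRMZM2G451187 the ratio ran between -11.38 and 12.55. For rca1 (GRMZM2G162200), Oh43xTIL25 had 2 maize and 2046 teosinte reads, a ratio of -9.68, while the median over 24 crosses was -0.05. Over all members, 114 of 3257 gene and cross pairs had a ratio beyond 5 on the log2 scale, 64 toward maize and 50 toward teosinte, in 54 genes. No such share among the other genes is given here, so whether it is particular to the members cannot be told. Whether a missing allele or a wrongly assigned site lies behind a given pair was not tested.

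The interaction of allele with parent was tested in leaf, without TIL05, TIL10 and TIL15, which have 1 cross each. Of 68 members with reads for every parent kept, 12 (17.6%) differed among teosinte parents, a call that 21.7% of all genes tested received, and 11 (16.2%) differed among maize parents, which 13.5% of all genes did. Both were called in 5. Ranges of ratios given below can include the crosses that the test left out.

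For the NADP-malic enzyme gene GRMZM2G085019 (me3) the ratio differed among maize parents (adjusted p = 0.0073). All 5 crosses of W22 had a lower maize allele, with log2 ratios of -8.36, -4.72, -3.12, -2.69 and -0.76, while the 20 crosses of the other maize parents lay between -0.23 and 1.04. The groups did not overlap. In W22xTIL01 the counts were 498 maize and 13110 teosinte reads. The leaf level of me3 in W22 itself was 316 CPM scaled to all sites of the gene, within the 165 to 981 of the other maize inbreds.

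For GRMZM2G008247 (glu2) the ratio differed on both sides (adjusted p = 0.0019 among teosinte and 0.00029 among maize parents). Its ratio was 3.42, 4.13 and 5.52 in the crosses of TIL09 and 6.70 in the cross of TIL01, and 0.19 to 0.49 in those of TIL11. With TIL14 it was 0.60 at the lowest and 9.54 at the highest, in the cross with W22. The leaf level of glu2 in the inbreds was 26.0 in TIL01 and 258 in TIL09, the 2 lowest of 15, against 390 to 1618 in the other teosinte inbreds. The maize inbreds had 1071 to 3067.

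For GRMZM2G116966 (OMT2) the ratio differed among teosinte parents (adjusted p = 0.00074). The teosinte allele was ahead in the 3 crosses of TIL14 with at least 20 reads, with ratios of -7.86, -4.47 and -3.75 and in those of TIL11 and TIL25 (-2.91 to -1.29), while crosses of TIL01, TIL03 and TIL09 lay between -0.73 and 1.43. The crosses of TIL14 with B73 and Mo17 also had the highest leaf levels of this gene, 1107 and 391 CPM. For pdk1 (GRMZM2G306345) the ratio also differed among teosinte parents (adjusted p = 0.030), with 0.21 to 0.53 in crosses of TIL01 and 0.14 to 0.45 in those of TIL09, against -0.98 to 0.22 in those of TIL14.

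Unnamed members gave clear splits as well. GRMZM2G042253 had ratios of -2.35 to -1.41 in the 3 crosses of CML103 and -0.70 to 0.48 in all others (adjusted p = 0.00041 among maize parents). GRMZM2G100060, at 52.9 CPM in the summed F1 leaves, changed sides with both parents (adjusted p = 0.00026 among teosinte and 0.00025 among maize parents): with B73 and CML103 the ratio was -6.23 to -4.70, with Ki3 it was -6.77 and -0.96, and with TIL01, TIL09, TIL11 and TIL25 it was 5.75 to 9.93. The inbreds B73, CML103 and Ki3 had no leaf read of it, against 46.7 to 124 in Mo17, Oh43 and W22, and TIL09, TIL11 and TIL25 had none either. TIL01 had 6.09. The rank 1 gene GRMZM2G138258 had ratios of -0.98 to -0.53 in crosses of TIL11 and of 0.29 to 0.35 in those of TIL01 (adjusted p = 0.00060).

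**Figure D5:**
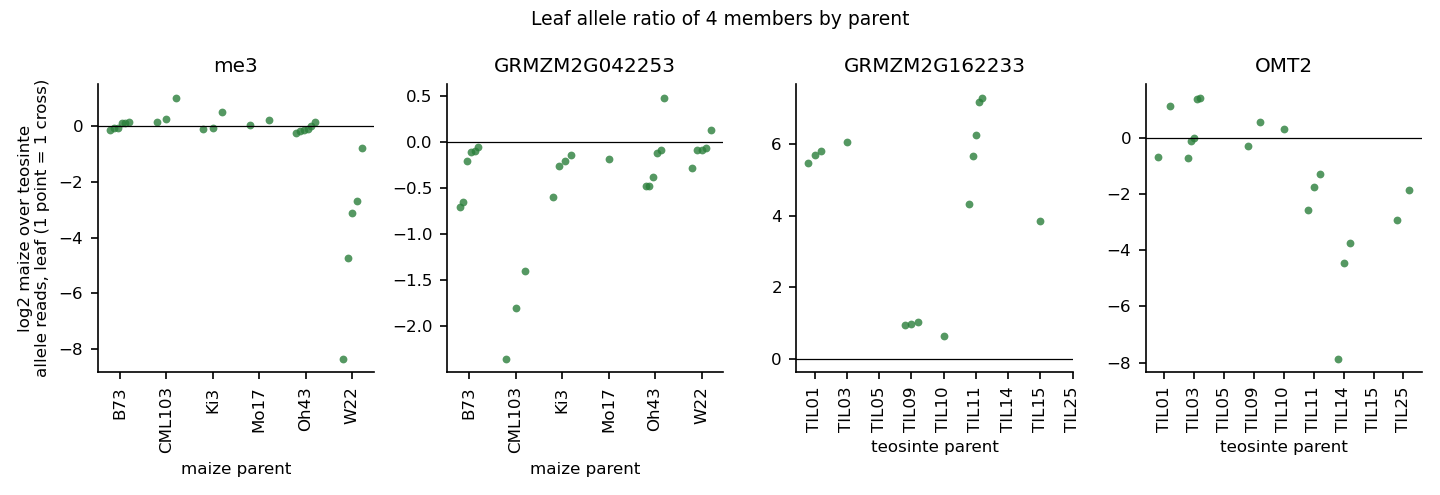
Log2 of maize over teosinte allele reads in leaf for me3 and GRMZM2G042253 by maize parent and for GRMZM2G162233 and OMT2 by teosinte parent, with 1 point per cross of at least 20 reads. Crosses of W22 lie at -8.36 to -0.76 in me3, those of CML103 at -2.35 to -1.41 in GRMZM2G042253, those of TIL09 and TIL10 at 0.64 to 1.03 in GRMZM2G162233, and those of TIL14 at -7.86 to -3.75 in OMT2.

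Maize and teosinte inbreds were compared in leaf. Of 166 members tested in edgeR with an offset for the sites of each inbred, 0 were called toward maize, where 0.323% of all genes were, and 0 toward teosinte, where 0.686% were. At an unadjusted p of 0.05 there were 15 toward maize, where 6.46% of all genes were, and 3 toward teosinte, where 12.6% were. DESeq2 called 7 members toward maize and 0 toward teosinte, against 2.38% and 5.36% of all genes. The median log2 of maize over teosinte was 0.21 in the members and -0.07 in all genes. In the following values CPM are scaled to all sites of the gene.

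The smallest p toward maize was that of GRMZM2G146878, with 34.6 to 109 in the 6 maize inbreds and 21.8 to 72.8 in the 9 teosinte inbreds (log2 1.10 ± 0.29, adjusted p = 0.068). Only Ki3 among the maize inbreds fell within the teosinte range. GRMZM2G006287 had 15.1 to 128 in maize and 2.32 to 34.5 in teosinte inbreds (log2 1.67 ± 0.48, adjusted p = 0.083), nuc had 49.6 to 467 and 45.9 to 208 (1.31 ± 0.38, adjusted p = 0.089), and GRMZM2G073223 had 111 to 217 and 0 to 140 (1.65 ± 0.50, adjusted p = 0.097). GRMZM2G076946 had 286 to 887 in maize and 117 to 508 in teosinte inbreds (1.18 ± 0.37, adjusted p = 0.11).

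Toward teosinte the smallest p were those of the rank 3 gene GRMZM5G873519 (99.5 to 491 in maize and 303 to 967 in teosinte inbreds, log2 -1.04 ± 0.41, adjusted p = 0.18), GRMZM2G027479 (-1.52 ± 0.57, adjusted p = 0.19) and GRMZM2G121878 (-1.69 ± 0.66, adjusted p = 0.20). For me3 the values were 165 to 981 in maize and 196 to 1585 in teosinte inbreds (-0.98 ± 0.47, adjusted p = 0.27), and for GRMZM2G391936 38.0 to 131 and 61.9 to 238 (-0.69 ± 0.34, adjusted p = 0.29). The groups overlapped in each of them. The last 2 values moved with the replicate: me3 had -0.13 without replicate 1 and -2.13 without replicate 2, and GRMZM2G391936 had -0.0074 and -1.52.

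F1 alleles and inbreds were set side by side for the called members. Of the 23 members called in leaf F1s, 19 were tested in the inbreds, and 16 (84.2%) had the same sign there, against 1046 of 1356 (77.1%) over all called genes. GRMZM2G162233 had a log2 of 4.28 between F1 alleles and 1.88 ± 0.63 between inbreds. GRMZM2G042253 was lower for maize between F1 alleles (-0.40) and had 0.66 ± 0.36 between inbreds (adjusted p = 0.33), and GRMZM2G111954 had -1.59 and 0.50 ± 0.74.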

How the data were processed

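Per the labels, polyA RNA was made into strand-specific libraries. The authors aligned reads with Bowtie, keeping perfect alignments to the transcriptomes of both parents. They deposited read counts of the maize and the teosinte allele at segregating sites of the B73 genome AGPv2. Each F1 library has 2 files, which were summed here, and each inbred library has 1. Here each position was counted once per gene and library, and reads were summed per gene (511053 sites in all). The members and the gene lists were chosen with earlier results of these data known.

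Tissues were tested on sums per inbred or cross, the inbred or cross being a block, and alleles on sums per cross with equal library sizes for both alleles, in edgeR 4.0.16 (quasi-likelihood, TMM for tissues, filterByExpr, about 2.83 CPM in the inbreds) under R 4.3.3, over all genes, with Benjamini-Hochberg adjustment at 0.05. Maize and teosinte inbreds were compared with each inbred as 1 sample. Ratios per cross add 0.5 reads to each allele and need 20 reads. DESeq2 1.42.0 and other alternatives are given in the closing section. The fits were tested on simulated counts with known changes and a set spread, the same for every gene. Of 2-fold changes, 90% were recovered for leaf over ear in inbreds and 100% for leaf F1 alleles. For the ratio among teosinte parents 12% were recovered, and for maize over teosinte inbreds 58.3%. Few or no calls in the last named tests thus do not show that 2-fold differences are absent. Of 4-fold changes, 94.8 to 100% were recovered. The set spread was not matched to the data. The members had a median SE of 0.40 for leaf over ear in inbreds and 0.41 for maize over teosinte inbreds. Fewer changes than these shares may therefore be recovered among the members. Figures used matplotlib 3.10.9.

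Named were the 12 highest scores, the 10 highest leaf levels, the ranks at the border, all members of a list, the 8 smallest p of called alleles with 10 or more crosses in each direction, the 5 smallest p of the inbreds in each direction, the 5 largest SDs over crosses, and members that lost a tissue call. Other genes were chosen after their values were seen. Replicates are biological per the labels. The 2 ear libraries of Oh43xTIL10, in pools 3 and 6, are both labelled replicate 1, and the study lists 1 ear replicate for this cross. They were counted here as 2 libraries. Promoter motifs were not analysed here.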

Additional observations from a re-analysis of the deposited data

Results flagged for a closer look

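In the leaf of the inbreds, 4 of 19 groups tested held an inbred far from the others by Dixon's criterion. Chance flags about 1 in 20 groups if values are normally spread, which was not tested for these CPM. The inbred was TIL25 in GRMZM2G073223 (140 CPM scaled to all sites, against 0 to 69.4 in the other teosinte inbreds). It was TIL03 in GRMZM2G076946 (508 against 117 to 232) and Ki3 in GRMZM2G146878 (34.6 against 85.8 to 109). In GRMZM2G085019 (me3) it was Mo17, with 981 against 165 to 355 in the other maize inbreds. The 2 leaf libraries of Mo17 held 1.43% and 6.87% of their reads in the members.

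The leaf allele ratio differed among teosinte parents in GRMZM2G138258 (edgeR adjusted p = 0.00060), GRMZM2G306345 (pdk1; 0.030), GRMZM2G008247 (glu2; 0.0019), GRMZM2G116966 (OMT2; 0.00074), GRMZM2G100060 (0.00026), GRMZM2G128434 (0.020), GRMZM2G081462 (0.0022) and GRMZM2G112968 (nuc; 0.0061). It differed among maize parents in GRMZM2G138258 (adjusted p = 0.00079), GRMZM2G085019 (me3; 0.0073), GRMZM2G008247 (glu2; 0.00029), GRMZM2G100060 (0.00025), GRMZM2G128434 (0.037), GRMZM2G042253 (0.00041), GRMZM2G146878 (0.041) and GRMZM2G112968 (nuc; 0.00090).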

How the results depend on the processing

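Against 14 members called toward maize, there were 67 by a binomial test on summed reads at 0.005 (31.4% of all genes), 26 with the replicate block (16.7%), 9 with TMM for each allele column (6.23%), 4 at an adjusted p of 0.005 (2.39%), 8 with the deepest site of each gene (4.41%), 5 without B73 (4.40%) and 8 to 9 without 1 replicate (4.85 to 4.96%). Against 9 toward teosinte, there were 51, 18, 10, 5, 4, 5 and 5 to 7 under the same settings, and 5 with all F1 leaf libraries, where 24.6%, 10.001%, 4.79%, 1.38%, 2.58%, 2.57%, 2.42 to 2.60% and 3.05% of all genes were. DESeq2 called 20 and 13 (11.6% and 6.42% of all genes). Differences among teosinte parents were called in 6 members at 0.005 (7.92% of all genes), 7 with the deepest site (10.6%), 39 with the replicate block (47.6%) and 7 to 7 without 1 replicate (11.9 to 12.99%), against 12, and among maize parents in 7 with the deepest site (6.31%), 29 with the replicate block (34.1%) and 4 to 8 without 1 replicate (7.45 to 8.89%), against 11. Members higher in maize inbreds numbered 8 with each library as a sample (4.77% of all genes), 8 with the replicate block (4.30%), 7 in DESeq2 (2.38%) and 0 to 2 without 1 replicate (0.0147 to 0.625%), against 0. In the crosses that the ranking left out, 157 were called with no filter (9.80% of all genes), against 104. Of the single genes, nuc had a log2 of leaf over stem of 0.59 in maize inbreds alone and -1.23 (adjusted p = 0.00031) in teosinte inbreds alone. The cause was not tested. With the replicate block, all 126 members tested were called higher in leaf than in ear in inbreds, where 36.2% of all genes were. Replicate numbers did not pair the samples: correlations of same-numbered deviations between tissues had medians of -0.07 to 0.07, and leaf and stem correlated over 0.1 in 7 of 24 F1s and 5 of 14 inbreds, leaf and ear in 2 of 21 and 0 of 14. Members had 1 to 91 sites.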
